A study of Homo sapiens with 5 samples.

Results

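miR-320 and miR-484 were followed in attached and detached MCF10A cells, which are human mammary epithelial cells of an immortalized line that does not form tumours. Members were the human rows of the count tables named hsa-miR-320 followed by a letter, together with hsa-miR-484. This gave 6 rows (hsa-miR-320a, hsa-miR-320b, hsa-miR-320c, hsa-miR-320d, hsa-miR-320e and hsa-miR-484) of 2565 human miRNA rows. The 2 detached libraries came from cells kept for a labelled 24 h over a non-adhesive coating of 2% poly-HEMA. The 3 attached libraries came from cells on uncoated plates and are labelled 0 h, although the series' design describes 24 h in culture for attached cells too. Per the labels, both groups shared 1 medium with horse serum, epidermal growth factor, insulin, cholera toxin, hydrocortisone and antibiotics, and small RNAs of 18 to 24 nt were gel-purified from 50 µg of total RNA. Nothing in the labels says that the replicates were separate cultures, so the p-values refer to variation among these libraries, part or all of which may be technical.

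Most miRNA hairpins are cut from a longer primary transcript by the nuclease Drosha, carried out of the nucleus by exportin 5 and then cut by Dicer. The precursors of miR-320a and miR-484 are known exceptions: their 5′ end is the start of transcription itself and bears the cap of RNA polymerase II, they leave the nucleus through exportin 1, and Dicer alone releases the mature strand. The other miR-320 letters come from separate loci with nearly the same mature sequence. In mouse mammary fibroblasts miR-320 is known to restrain the transcription factor Ets2, and in mouse cardiomyocytes miR-484 is known to restrain Fis1, a mitochondrial fission protein. Caps and Drosha dependence were not measured here, since the tables count mature reads.

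The mature strands of the members other than miR-320a are shown because they bear on how far the rows can be told apart. No sequence under the name miR-320a was at hand, so its overlap with the other letters was not compared. Bases 2 to 8, the seed that pairs with target mRNAs, are in capitals, and the sequences are those of RefSeq on GRCh38.p14.
miR-320b: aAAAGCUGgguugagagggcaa
miR-320c: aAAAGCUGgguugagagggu
miR-320d: aAAAGCUGgguugagagga
miR-320e: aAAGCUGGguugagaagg
miR-484: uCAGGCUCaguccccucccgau
miR-320b and miR-320c begin with the same 19 bases, and each begins with the same 18 bases as miR-320d. miR-320b, miR-320c and miR-320d carry the seed AAAGCUG. miR-320e starts 1 base further along, so its seed is AAGCUGG, and its longest run in common with each of these 3 is 15 bases. How reads that fit several names were shared out is not given in the sources used here, so counts for single letters of miR-320 are uncertain. miR-484 shares no seed with miR-320b, miR-320c, miR-320d or miR-320e. Its G and C content was 63.6%, above that of 80.8% of the 603 tested rows with a RefSeq sequence, whereas miR-320b and miR-320c had 50% each, equal to the median of those rows.

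Hairpin positions are those of RefSeq on GRCh38.p14, with gene context from GENCODE 29 on the same assembly. MIR484, at chr16:15643294-15643372 on the plus strand, overlaps a UTR exon of NDE1 on the same strand, and its 5′ end lies 27 bp downstream of the nearest annotated NDE1 start. Among the miR-320 loci, MIR320B2 lies in an intron of NVL and MIR320E in an intron of PRKD2, both in the sense direction. MIR320C1 and MIR320C2 lie antisense in introns of ABHD3 and OSBPL1A, and MIR320B1, MIR320D1 and MIR320D2 overlap no gene of another type. The nearest annotated start on the same strand was that of PRKD2, 4669 bp from the MIR320E hairpin. In each hairpin of miR-320b to miR-320e the mature strand is on the 3′ arm, as the capitals show for MIR320B1 (chr1:116671746-116671817, plus strand).
MIR320B1 hairpin: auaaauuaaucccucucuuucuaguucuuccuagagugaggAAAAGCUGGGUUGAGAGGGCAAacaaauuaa
miR-484 is annotated on the 5′ arm instead, from base 8 to base 29 of its hairpin of 79 bases.

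Human miRNA counts totalled 15793173 and 10533740 in detached replicates 1 and 2, and 12153778, 8805009 and 10321861 in attached replicates 1, 2 and 3. They made up 97.1% to 98.7% of named counts in detached libraries and 98.3% to 98.5% in attached ones, while 5S rRNA made up 0.0157% and 0.0328% in detached libraries and 0.00401% to 0.00626% in attached ones. Attached replicate 2 stood apart: over 697 miRNAs it had Spearman correlations of 0.812 to 0.857 with the other 4 libraries, which reached 0.927 to 0.961 with each other, so fold changes are also given without it. Of the epithelial markers miR-205-5p, miR-200c-3p, miR-141-3p, miR-200b-3p and miR-203a-3p, all 5 were detected, with a summed level of 84893 and 94183 CPM (counts per 1000000 human miRNA counts, scaled with TMM factors) in detached libraries and 54659 to 98276 CPM in attached ones. Summed markers of other cells were scarce: haematopoietic 6.62 and 11.2 CPM in detached and 1.21 to 10.8 CPM in attached libraries, erythroid 11.0 and 11.1 against 5.69 to 6.97 CPM, mesenchymal 14.0 and 57.8 against 3.31 to 15.6 CPM, muscle 0.0761 and 11.7 against 0 to 1.48 CPM, neural 3.35 and 10.1 against 6.18 to 9.71 CPM, and liver 0.0761 and 0.191 against 0 to 0.680 CPM. Their part in the values below was not tested.

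miR-320a was among the more abundant miRNAs of these cells, ranking 22nd of 2565 rows by mean CPM. Its hairpin, MIR320A, at chr8:22244966-22245037 on the minus strand of GRCh38.p14, overlaps no annotated gene of a type other than miRNA, and the start of POLR3D, on the opposite strand, lies 67 bp away. It had 70617 and 88374 raw counts in detached libraries, and 81694, 65018 and 79888 in attached libraries. As TMM-scaled CPM it measured 4497 and 6724 in detached libraries, and 7115, 9867 and 6789 in attached libraries. On this scale both detached libraries lay below all 3 attached ones, by a narrow margin between detached replicate 2 and attached replicate 3. Such a gap toward lower values was seen for 14.2% of the 697 tested miRNAs. The mean was 5611 ± 1575 CPM in detached cells (SD, n = 2) and 7923 ± 1691 CPM in attached cells (SD, n = 3). The log2 fold change was -0.50 (SE 0.53, 95% interval -1.72 to 0.73). miR-320a did not pass edgeR's quasi-likelihood test (adjusted p 0.845), and an exact permutation test on log2 CPM gave a two-sided p of 0.1, the smallest that 3 against 2 libraries allow.

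The order of the libraries for miR-320a depended on the scaling. Per 1000000 human miRNA counts, with no TMM factor, miR-320a measured 4471 and 8390 CPM in detached libraries, and 6722, 7384 and 7740 CPM in attached libraries. On that scale the detached libraries were the lowest and the highest of the 5, so the groups overlapped. A gap toward lower values was seen on that scale for 8.75% of the tested miRNAs, and miR-320a was not among them. The attached libraries averaged 7282 ± 517 CPM (SD, n = 3). The log2 fold change was then -0.18 (SE 0.49), and the exact permutation test gave a two-sided p of 0.7 for a difference in mean log2 CPM of -0.25. The TMM factors were 0.994 and 1.25 in detached replicates 1 and 2, and 0.945, 0.748 and 1.14 in attached replicates 1, 2 and 3. Over all tested miRNAs the median log2 fold change was -0.04 with TMM factors and 0.20 without them. miR-320a lay below the median on both scales. A factor rescales all rows of a library alike, so the 2 scales do not test this position separately. With the RLE and upper-quartile factors, as with TMM, the 2 detached libraries lay below the 3 attached ones. Such a gap was seen for 15.4% of the 697 tested miRNAs with RLE and for 15.4% with upper-quartile factors. These factors rescale the same 5 libraries, so they give no separate evidence. Without attached replicate 2 the log2 fold change was -0.32 (SE 0.46), and without detached replicate 1 it was -0.18 (SE 0.83).

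miR-484, the member hosted by NDE1, was less abundant and ranked 69th by mean CPM. It had 12714 and 11899 raw counts in detached libraries, and 13141, 5003 and 9175 in attached libraries. As TMM-scaled CPM it measured 810 and 905 in detached libraries, and 1144, 759 and 780 in attached libraries. The detached libraries lay between attached replicates 1 and 3, so the groups overlapped. The mean was 858 ± 67.7 CPM in detached cells (SD, n = 2) and 894 ± 217 CPM in attached cells (SD, n = 3). Its log2 fold change was -0.06 (SE 0.56), with an adjusted p of 0.990 by edgeR. The 95% interval ran from -1.35 to 1.23, so a fold between 0.392 and 2.35 is not excluded by these libraries. Without TMM factors the levels were 805 and 1130 CPM in detached libraries against 1081, 568 and 889 CPM in attached libraries, and the log2 fold change was 0.19 (SE 0.57). Without attached replicate 2 it was -0.17 (SE 0.47).

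**Figure D1:**
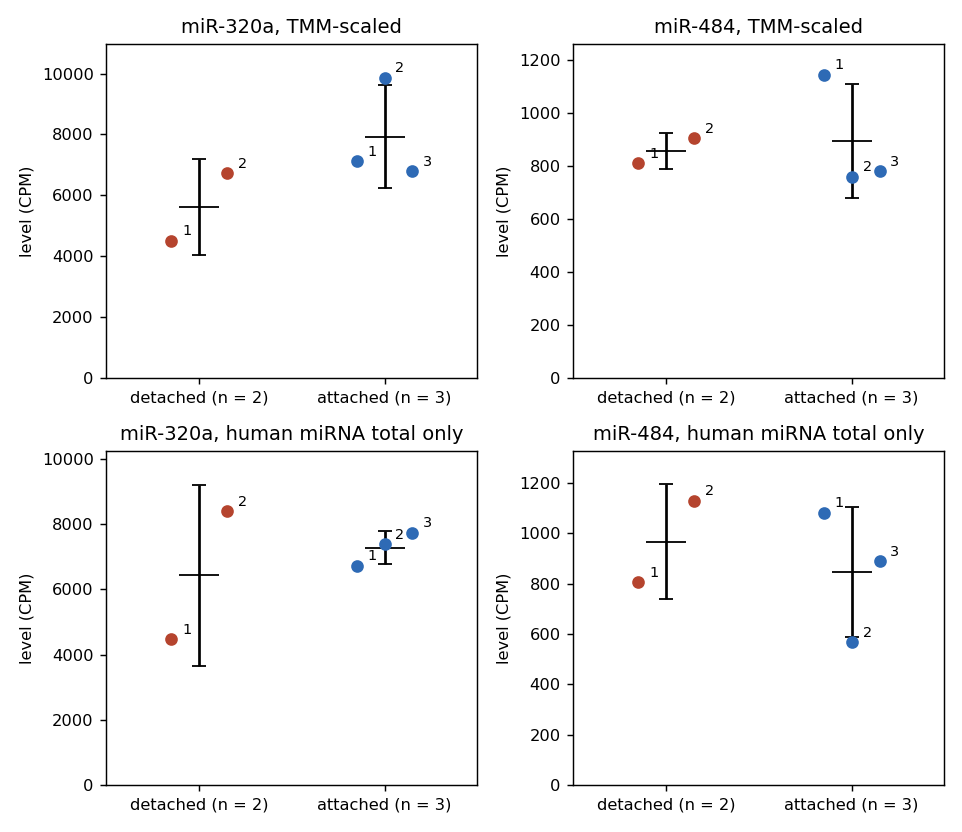
Level of miR-320a (left) and miR-484 (right) in each library, in CPM with TMM factors (top) and per 1000000 human miRNA counts alone (bottom). Points are libraries with their replicate numbers, and bars are the mean ± SD. The detached points of miR-320a lie below every attached point in the top panel and on either side of them in the bottom panel, and the groups overlap for miR-484 in both.

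miR-320a made up nearly all of the miR-320 counts as deposited, where the sharing out of reads that fit several names is not known. Its share of the miR-320 sum was 99.84% and 99.79% in detached libraries, against 99.81%, 99.86% and 99.84% in attached ones, each with a 95% Wilson interval of less than 0.1 percentage points that covers counting error only. The sum therefore followed miR-320a, with 5621 ± 1580 CPM in detached cells (SD, n = 2) and 7936 ± 1692 CPM in attached cells (SD, n = 3), and a log2 fold change of -0.50 (SE 0.53). miR-320b, the next in abundance, had 100 and 162 counts in detached libraries and 135, 73 and 112 in attached libraries. For every 1000 counts of miR-320a this was 1.42 and 1.83 counts of miR-320b in detached libraries, and 1.65, 1.12 and 1.40 in attached ones, so the groups overlapped. In CPM, miR-320b gave -0.21 on the log2 scale (SE 0.62, adjusted p 0.949 by edgeR), and 0.10 (SE 0.65) without TMM factors.

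The remaining letters were close to the limit of detection. miR-320c had 12 and 12 counts in detached libraries and 16, 8 and 8 in attached libraries, and gave -0.38 on the log2 scale (SE 0.66, adjusted p 0.891 by edgeR). For miR-320c this was -0.09 (SE 0.67) without TMM factors and -0.67 (SE 0.71) without attached replicate 3. miR-320e, the letter with the shifted seed, had 4 and 7 counts in detached libraries and 4, 7 and 3 in attached libraries. miR-320d had 0 and 1 counts in detached libraries and 3, 0 and 1 in attached libraries, all at or under a floor of 3 counts (0.190 and 0.285 CPM in detached, 0.247 to 0.341 CPM in attached libraries, without TMM factors). The miR-320d and miR-320e rows failed the low-count filter and were not tested with edgeR. A further 12 rows that name miR-320 or miR-484 in other species or as predicted hairpins had 0 counts.

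**Figure D2:**
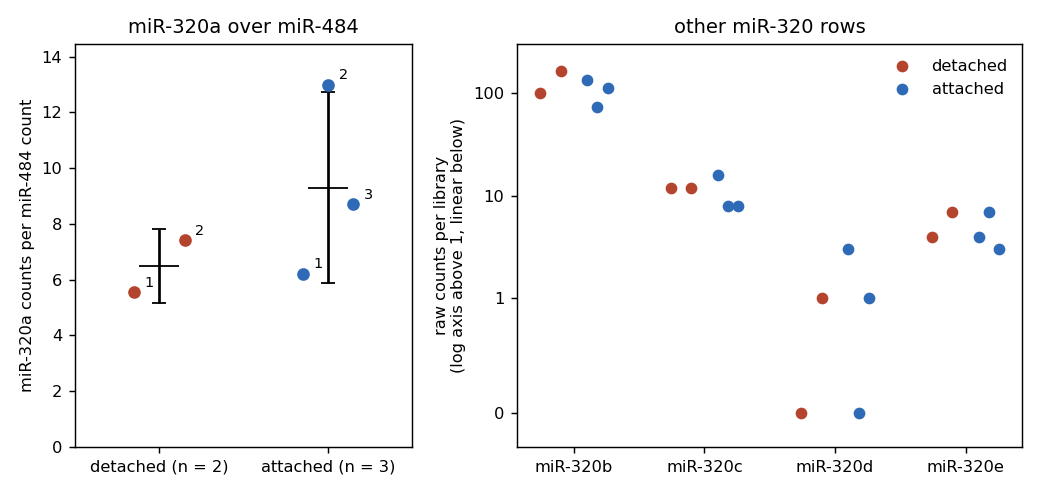
Left, counts of miR-320a per count of miR-484 in each library, with the mean ± SD. Right, raw counts of the other miR-320 rows in each library, from 162 at most for miR-320b to 0 for miR-320d, on an axis that is logarithmic above 1; detached and attached points overlap in every row.

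Of the 4 members that passed the filter, edgeR called 0 at an adjusted p under 0.05, against a background of 0% of 697 rows called higher and 0% called lower, and 0 had an unadjusted p under 0.05, against 7.03% of those rows. DESeq2, which gave a fold change for all 6 members but no adjusted p for miR-320d, called 0 of them, against 1.26% of 949 rows called higher and 0% called lower. limma-voom tested the 4 filtered members and called 0, against 0% of 697 rows in either direction. All 4 tested members had negative log2 fold changes with TMM factors, but miR-320b and miR-484 were positive without them. The median over all 697 rows was -0.04 with TMM factors, so a negative sign was common. The miR-320 letters may also share reads, so their signs may not be separate observations. Without attached replicate 2, where edgeR called 3.24% of 679 rows higher and 0.147% lower, 0 of the 4 were called, and miR-320b and miR-320c gave -0.20 (SE 0.52) and -0.31 (SE 0.60). In the authors' deposited table the log2 fold changes were -0.49 (SE 0.67) for miR-320a, -0.25 (SE 0.72) for miR-320b, -0.34 (SE 0.93) for miR-320c, -0.61 (SE 1.14) for miR-320d, -0.32 (SE 1.07) for miR-320e and -0.11 (SE 0.69) for miR-484, with an adjusted p of 0.998 for each.

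**Figure D3:**
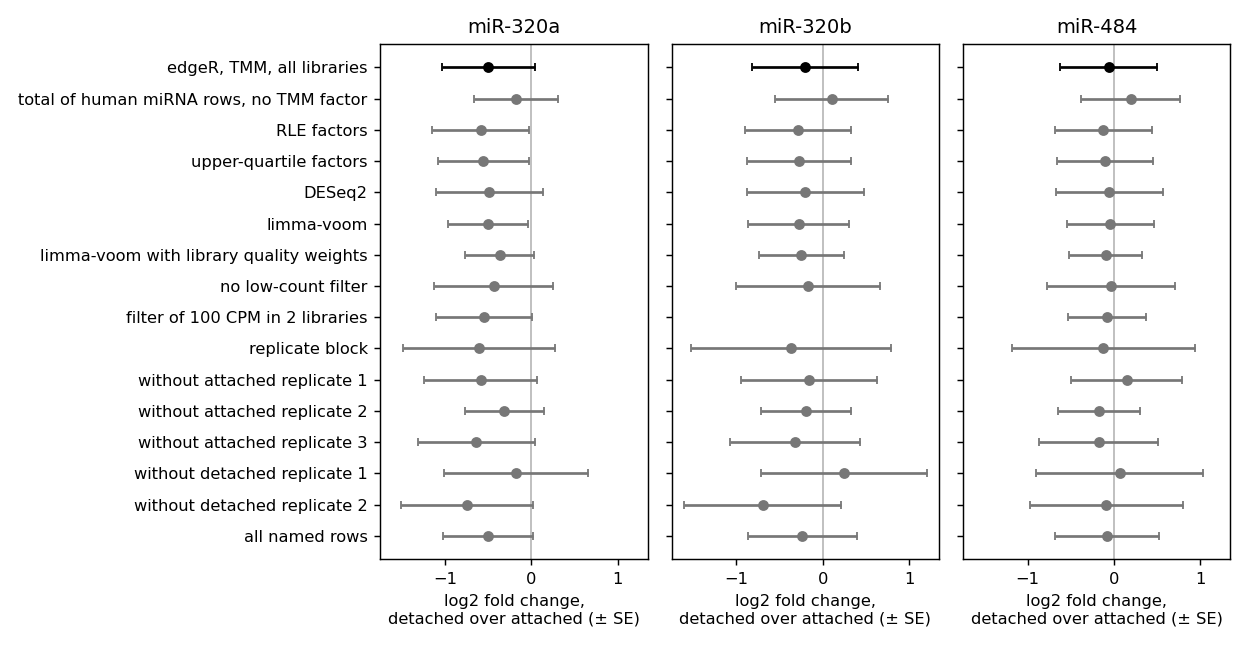
Log2 fold change, detached over attached, with its SE, of miR-320a, miR-320b and miR-484 under each processing setting. The value for all 5 libraries with TMM factors is in black. miR-320a is negative in every setting shown, from -0.74 to -0.18, while miR-320b and miR-484 lie on both sides of 0; miR-320b has no value under the filter of 100 CPM.

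A ratio of counts within a library needs no scaling, so miR-320a was also set against miR-484 directly. For each count of miR-484 there were 5.55 and 7.43 counts of miR-320a in detached libraries, and 6.22, 13.0 and 8.71 in attached libraries. Detached replicate 1 was the lowest and attached replicate 2 the highest, with detached replicate 2 between attached replicates 1 and 3. The log2 ratio of miR-484 to miR-320a was -2.68 ± 0.30 in detached cells (SD, n = 2) and -3.15 ± 0.53 in attached cells (SD, n = 3), a difference of 0.47 (exact permutation test over the 10 splits, two-sided p = 0.4, with 0.1 the smallest possible). The difference between the responses of the 2 main members was thus within the spread between libraries, and it was 0.20 without attached replicate 2, 0.73 without attached replicate 1 and 0.68 without detached replicate 2. Their log2 levels over the 5 libraries had a Pearson correlation of -0.05, as a description.

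Both miRNAs varied less between libraries than most others did. The highest library exceeded the lowest by 1.51-fold for miR-484 and 2.19-fold for miR-320a in TMM-scaled CPM, against a median of 2.89-fold over the 100 most abundant miRNAs. By this measure miR-484 was the 3rd and miR-320a the 34th smallest of those 100. Without TMM factors the folds were 1.99 for miR-484 and 1.88 for miR-320a, the 26th and 22nd smallest, against a median of 2.85. In TMM-scaled CPM, attached replicate 2 differed from the mean log2 level of the other attached libraries by 0.51 for miR-320a and -0.32 for miR-484. With its sign left out, this deviation had a median of 0.86 over the same 100 miRNAs. Without TMM factors these deviations were 0.03 for miR-320a and -0.79 for miR-484, against a median of 1.02. The neighbours of miR-484 in abundance spread more widely, such as miR-183-5p with 587 to 1246 CPM and miR-96-5p with 141 to 1299 CPM, against 759 to 1144 CPM for miR-484. The neighbours of miR-320a by rank were miR-26a-5p above it and let-7i-5p below. Their libraries covered 4993 to 10899 and 3452 to 12391 CPM, against 4497 to 9867 CPM for miR-320a. In fold terms miR-26a-5p thus spread about as much as miR-320a, and let-7i-5p spread more widely.

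**Figure D4:**
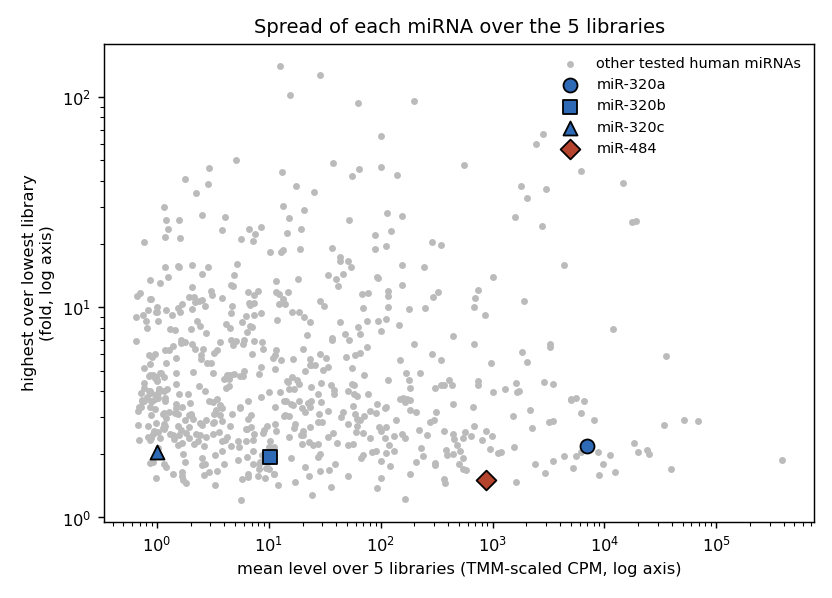
Highest over lowest library (fold, log axis) against mean level (TMM-scaled CPM, log axis) of the 656 tested miRNAs with a count in every library. miR-484 lies near the lower edge at 1.51-fold, and miR-320a, miR-320b and miR-320c lie between 1.94-fold and 2.19-fold.

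By profile over the 5 libraries, the miRNAs most like miR-320a among 693 others were miR-296-3p (Pearson correlation of log2 levels 0.999), miR-1292-5p (0.987) and miR-30a-3p (0.985). miR-296-3p measured 37.4 and 66.9 CPM in detached libraries and 70.4, 114 and 69.1 CPM in attached libraries, the same order of libraries as miR-320a. Those most like miR-484 were miR-340-3p (0.979), miR-521 (0.972) and miR-216a-5p (0.968). miR-340-3p measured 31.3 and 38.8 CPM in detached libraries and 47.0, 27.9 and 29.1 CPM in attached libraries. With 5 libraries and 693 candidates, high correlations arise readily, and the libraries share their scaling.

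The other miRNAs listed here as held to bypass part of the usual processing were scarce beside miR-320a and miR-484. They were mirtrons, rows derived from snoRNAs and miR-451a, and further miRNAs of this kind were not tallied. Mirtrons are held to be released by splicing, from short introns that form the hairpin. The list was set by name, and release by splicing was not measured for any of its rows, so single rows may be made in other ways. Of 23 mirtron rows 19 had a count and 7 were tested, with 6 positive and 1 negative log2 fold changes and a median of 0.49, against -0.04 over all 697. A row scarce in 1 group can pass the low-count filter through the other group alone, as miR-1228-3p did. It had 1.02 and 1.52 CPM in detached libraries against 0.174, 0 and 0.425 CPM in attached ones. The tallies and medians of this list and the next therefore depend partly on the filter. Without attached replicate 2 the mirtron median was 0.16. Their summed level was 43.2 and 52.0 CPM in detached libraries and 29.4 to 52.5 CPM in attached ones, led by miR-877-5p at 21.9 ± 4.91 CPM in detached cells (SD, n = 2) and 20.3 ± 5.62 CPM in attached cells (SD, n = 3). edgeR called 0 mirtrons, with 1 of 7 at an unadjusted p under 0.05, a level reached by 7.03% of all tested rows (miR-1228-3p, 2.46 on the log2 scale, SE 0.90, adjusted p 0.560 by edgeR), and DESeq2 and limma-voom called 0. Of 9 rows derived from snoRNAs 5 were tested, with 4 positive, a median of 0.30 (1.40 over the 4 still tested without attached replicate 2) and 0 called by edgeR, 2 at an unadjusted p under 0.05, beside the same 7.03%. The negative one was miR-1291, at 0.573 and 0.457 CPM in detached libraries against 1.39, 7.28 and 0.595 CPM in attached libraries (-2.52 on the log2 scale, SE 1.13, adjusted p 0.654 by edgeR), and it is the row not tested without attached replicate 2. The larger of the 2 at an unadjusted p under 0.05 was miR-1248, at 2.17 and 7.00 CPM in detached libraries against 0.348, 0 and 0.340 CPM in attached libraries (4.12 on the log2 scale, SE 0.95, adjusted p 0.198 by edgeR). It passed the low-count filter through the detached libraries alone, so its fold change rests on attached values near the floor of 3 counts. Without attached replicate 2, where edgeR called 3.24% of 679 rows higher, miR-1248 was called (3.68, SE 0.71, adjusted p 0.00612 by edgeR). DESeq2 on all libraries also called 1 row of this list, against 1.26% of 949 rows called higher, while limma-voom called 0. miR-451a, which is cut by Argonaute 2 instead of Dicer, measured 6.94 and 7.76 CPM in detached libraries and 4.44, 0.607 and 3.40 CPM in attached libraries (1.36 on the log2 scale, SE 0.79, adjusted p 0.735 by edgeR, and 0.90, SE 0.51, without attached replicate 2).

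miR-320a and miR-484 are often used as internal references in miRNA measurements, so they were set beside 10 other miRNAs used in that way. The rows of miR-103a-3p and miR-423-5p were listed at 0 in all 5 libraries. The opposite arm of the latter, miR-423-3p, measured 1677 and 2198 CPM in detached libraries, and 1487, 575 and 2282 CPM in attached libraries. Why the rows at 0 had no counts was not tested, so they are not read as absent miRNAs. The other 8 reference miRNAs were tested. Of these 4 were positive and 4 negative, with a median log2 fold change of -0.05 (0.01 without attached replicate 2), and edgeR called 0, with 0 at an unadjusted p under 0.05; DESeq2 and limma-voom also called 0. Their fold changes ranged from -2.92 for miR-25-3p to 0.78 for miR-191-5p, wider than the range of -0.50 to -0.06 of the 4 tested members. Attached replicate 2 set the low end: miR-25-3p had 331 and 312 CPM in detached libraries against 236, 6337 and 744 CPM in attached libraries, and its log2 fold change was -0.61 (SE 0.56) without that library. miR-24-3p likewise had 640 and 660 CPM in detached libraries against 834, 6848 and 650 CPM in attached libraries, with -2.10 (SE 1.09) with all libraries and -0.19 (SE 0.47) without attached replicate 2. miR-16-5p measured 3884 and 6869 CPM in detached libraries, and 7018, 443 and 3505 CPM in attached libraries.

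**Figure D5:**
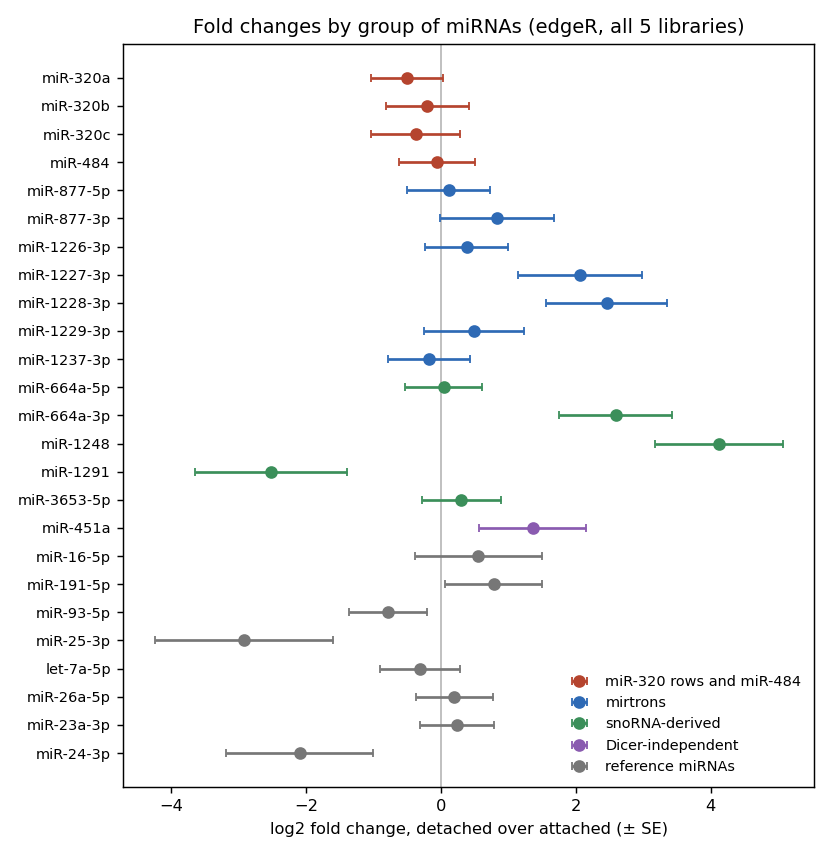
Log2 fold change, detached over attached, with its SE (edgeR, all 5 libraries) of the 4 tested members, then of the mirtrons, the miRNAs derived from snoRNAs, miR-451a and the reference miRNAs. The members lie between -0.50 and -0.06, while the other groups reach from -2.92 for miR-25-3p to 4.12 for miR-1248.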

How the data were processed

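Raw read counts for 49965 named small RNAs in each of 5 libraries were used as deposited, with 5 summary rows that total 0 left out. Per the labels, RNAs of 18 to 24 nt were sequenced. The submitters' processing notes name hg38 and DESeq2; how reads were aligned, counted and shared among names is not stated there. From the authors' deposited comparison table, log2 fold changes, their SE and raw and adjusted p-values were copied, and 5 columns of per-library values were not used. Human miRNAs (2565 rows) were analysed in R 4.3.3 by the two-sided quasi-likelihood F test of edgeR 4.0.16, with TMM factors. filterByExpr (minimum count 10, minimum total 15) kept 697 rows, over which p was adjusted by Benjamini-Hochberg, with calls at 0.05. SE is the absolute log2 fold change over the square root of F. CPM (counts per 1000000) uses the human miRNA total times the TMM factor. DESeq2 1.42.0, limma 3.58.1 voom, other scalings and filters and leaving out each library were alternatives. The test was tested on simulated data. A floor of 3 counts covers counting error only.

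Named miRNAs were all members, the 3 nearest profiles and ranks of miR-320a and miR-484, and tested members of the 4 lists. miR-423-3p was looked up after the values were seen. Profiles were compared as log2 of CPM plus 1, and ratios with 0.5 added to each count. The ranking by spread was chosen after the values were seen. The members and lists were chosen with earlier results of these data known.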

Additional observations from a re-analysis of the deposited data

How the results depend on the processing

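With all 5 libraries and TMM factors, edgeR called 0 miRNAs higher and 0 lower in detached cells, with 33 higher and 16 lower at an unadjusted p under 0.05. DESeq2 called 12 higher, voom with library quality weights 13, and edgeR with no low-count filter 14 higher and 5 lower. Leaving out 1 library gave 0 to 22 higher and 0 to 1 lower, with 22 and 1 only without attached replicate 2; none of these calls was a member. Without TMM factors the log2 fold change of miR-320b was 0.10 and that of miR-484 0.19. Leaving out 1 library gave -0.70 to 0.25 for miR-320b, positive without detached replicate 1, and -0.18 to 0.15 for miR-484, positive without attached replicate 1 (0.15) and without detached replicate 1 (0.07). miR-320a stayed negative, from -0.74 without detached replicate 2 to -0.18 without detached replicate 1, and the miR-320 sum did so too, from -0.75 to -0.18. Of the list members, 1 derived from a snoRNA was called higher by DESeq2, 1 with no low-count filter, and 0 to 1 when a library was left out. The cause was not tested in any of these cases. Leaving out 1 library gave -0.67 to -0.20 for miR-320c. The difference in the log2 ratio kept its sign in the 7 alternatives, from 0.20 to 0.73.

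With the replicate number as a block, edgeR called 0 and 0 miRNAs, and the log2 fold changes were -0.61 (SE 0.88) for miR-320a and -0.12 (SE 1.06) for miR-484. The correlation of deviations of same-numbered libraries was -0.26 and -0.23. The 2 detached libraries deviate from their mean by equal and opposite amounts, so these 2 values are not independent and cannot decide pairing. The labels give the numbers no shared culture, so whether they mark pairs is not known. miR-320c was not tested without attached replicate 1, and miR-320b and miR-320c fell under the filter of 100 CPM. With 2 detached libraries the 95% interval of miR-320a allows a fold between 0.303 and 1.66.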

Other observations

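Names that share a seed with miR-320b to miR-320e or miR-484 in the RefSeq table were scarce. miR-4429, with the seed of miR-320b to miR-320d, had 4 and 8 counts in detached libraries, and 2, 3 and 2 in attached libraries. miR-3155a, with the seed of miR-484, had 4 and 5 counts in detached libraries, and 6, 12 and 5 in attached libraries, and miR-3155b had 0 in all 5. These names failed the low-count filter and were not tested, and they were looked up by sequence after the members' values were seen.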
